A study of Mus musculus with 2 samples.

Results

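The 10 genes described here encode transcription factors of group 2 innate lymphoid cells (ILC2s) and their progenitors: Id2, Tcf7, Nfil3, Tox, Ets1, Rora, Bcl11b, Gfi1, Maf and Bach2. They were chosen by symbol from the 22028 protein-coding genes of GENCODE vM21 on the mouse build GRCm38, and all 10 were found. The data were lists of H3K4me3 peaks from lung ILC2s of adult offspring, C57BL/6J mice labelled as 8 weeks old. One list came from offspring of control mothers, which had received PBS with alum intraperitoneally on days -21 and -7 and PBS intranasally during gestation. The other came from offspring of asthmatic mothers, which had received 100 µg ovalbumin (OVA) with alum on the same days and 500 µg OVA intranasally every few days in pregnancy, first on day 4 and last by day 17. The fathers were untreated in both groups. Each group was 1 library of about 3000 sorted cells from offspring of 1 dam, so the treatment cannot be told apart from the dam. The number of offspring per library is not given in the sources used here. Differences between the lists therefore have no replicate check and no test. Fewer marked cells, less mark per cell and a difference between the immunoprecipitations cannot be told apart.

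H3K4me3, trimethylation of lysine 4 on histone H3, lies on the nucleosomes around the start of genes that are transcribed or poised. It favours starts rich in CpG dinucleotides, and broad stretches of it are typical of genes that define a cell type. ILC2s are tissue lymphocytes without antigen receptors that make type 2 cytokines in the lung. They arise from common lymphoid progenitors through steps that need Id2, Nfil3, Tox, Tcf7 and Ets1, and then take on the ILC2 program with Gata3, Rora, Bcl11b and Gfi1. Maf and Bach2 are known mainly for tuning the output of effector lymphocytes.

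A peak was assigned to a gene when it overlapped the gene body or came within 1000 bp of one of its transcript starts, and it was called a start peak in the second case. Starts no more than 1000 bp apart were taken as 1 start group. The control list held 42126 peaks and the asthmatic list 51610, of which 23 and 20 belonged to the 10 genes. The label of the cells was checked on marker genes. A start peak was present at 9 of 12 ILC2 markers in the control list, where 50.9% of all protein-coding genes had one. In the asthmatic list it was 6 of 12 against 41.9%, which is near that share and says little about the label. Il1rl1, the receptor used for the sort, had a start peak in both lists. Icos, Klrg1 and Il13 had none in either list. Gata3, the master regulator of ILC2s, had one in the control list only, at the 24.7th percentile of that list by −log10 q. T cell, B cell, macrophage, neutrophil and fibroblast markers had no start peak in either list. Of 5 epithelial markers Epcam and Cdh1, and of 4 endothelial markers Kdr, had one in the control list and none in the asthmatic list. Their part in the values below was not tested.

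The 10 genes have 21 start groups, and the sequences before some of them are shown as examples of their base composition. Each is the 250 bases before the start on the gene's own strand of GRCm38, with CG dinucleotides in capitals.
Ets1-201 start, marked in both lists (chr9:32695772-32696021, + strand): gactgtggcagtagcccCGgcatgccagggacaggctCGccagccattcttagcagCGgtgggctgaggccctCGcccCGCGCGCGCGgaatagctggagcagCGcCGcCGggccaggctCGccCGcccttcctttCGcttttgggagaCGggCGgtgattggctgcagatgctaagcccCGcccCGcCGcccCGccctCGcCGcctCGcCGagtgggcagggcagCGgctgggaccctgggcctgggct
Maf-201 and Maf-202 group, first start, marked in both lists (chr8:115707795-115708044, - strand): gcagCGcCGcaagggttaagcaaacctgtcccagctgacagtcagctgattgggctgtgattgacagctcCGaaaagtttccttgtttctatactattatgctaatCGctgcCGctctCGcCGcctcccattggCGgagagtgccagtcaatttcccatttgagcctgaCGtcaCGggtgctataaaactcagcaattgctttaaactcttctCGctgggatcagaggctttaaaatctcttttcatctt
Rora-202 start, marked in both lists (chr9:69289432-69289681, + strand): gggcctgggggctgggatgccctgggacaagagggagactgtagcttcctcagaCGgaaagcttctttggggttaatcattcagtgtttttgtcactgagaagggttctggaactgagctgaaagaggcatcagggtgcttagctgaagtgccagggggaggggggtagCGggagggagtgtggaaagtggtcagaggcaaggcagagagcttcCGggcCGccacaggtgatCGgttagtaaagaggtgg
Gfi1-201 start, marked in the control list (chr5:107724344-107724593, - strand): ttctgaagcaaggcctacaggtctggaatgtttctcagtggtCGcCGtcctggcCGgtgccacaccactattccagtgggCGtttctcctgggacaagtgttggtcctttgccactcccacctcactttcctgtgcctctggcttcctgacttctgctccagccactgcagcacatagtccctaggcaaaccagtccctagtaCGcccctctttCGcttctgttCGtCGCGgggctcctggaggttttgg
Tox-202 start, unmarked (chr4:6689352-6689601, - strand): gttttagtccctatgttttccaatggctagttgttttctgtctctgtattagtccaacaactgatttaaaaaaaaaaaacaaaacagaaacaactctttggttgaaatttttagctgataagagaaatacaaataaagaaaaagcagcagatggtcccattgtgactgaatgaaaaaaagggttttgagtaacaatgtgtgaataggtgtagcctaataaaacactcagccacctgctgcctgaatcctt
The window of Ets1 holds 26 CG dinucleotides, that of Maf 11, that of Gfi1-201 9, that of Rora-202 5 and that of Tox-202 0. Over all marked windows the number ran from 5 to 44, and over all unmarked ones from 0 to 26, the most at the first Rora group. The windows of the remaining marked starts overlap annotated exons and are not printed. Of the unmarked windows only that of Tox-202 is shown.

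All 10 genes had a start peak in the control list, where 50.9% of all protein-coding genes had one, and 7 had a start peak in the asthmatic list, where 41.9% had one. The genes without one in the asthmatic list were Tcf7, Gfi1 and Nfil3. Among all protein-coding genes with a start peak in the control list, 19.1% had none in the asthmatic list. No member had a start peak in the asthmatic list alone, which 1.72% of the genes with an asthmatic start peak did. With a −log10 q of at least 5, all 10 genes kept a start peak in the control list, against 49.5% of protein-coding genes. In the asthmatic list Rora, Bcl11b, Ets1, Tox and Bach2 did, 5 of 10 against 37.3%. Among the 10000 peaks of highest −log10 p, Nfil3, Maf and Bach2 had one in the control list, 3 of 10 against 32.2% of protein-coding genes, and Rora in the asthmatic list, 1 of 10 against 9.32%.

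Each gene carried the mark at exactly 1 of its start groups, 10 of 21 in the control list. In the asthmatic list it was at 7, all of them among the 10. This rests on the distance of 1000 bp: with 2000 bp, 12 groups were marked in the control list and 8 in the asthmatic list, since the upstream groups of Id2 (nearest peaks 1310 and 1384 bp away) and, in the control list, Gfi1 (1728 bp) then had a peak. Of the genes with 2 or more start groups and a start peak, 87.9% used exactly 1 in the control list and 91.0% in the asthmatic list. The use of the same groups in both lists was seen for 93.6% of such genes. Only 6 of the 10 genes have 2 or more groups, since Bcl11b, Tcf7, Nfil3 and Maf have 1. The marked groups had a median CpG observed to expected ratio of 0.779 over 500 bp either side of the start, with a range of 0.491 to 0.996. The 11 unmarked groups had a median of 0.311 and a range of 0.216 to 0.856. All 10 marked groups hold coding transcripts. The 4 unmarked groups that do so had a median of 0.560 and a range of 0.252 to 0.856. The median over the 5′ ends of all protein-coding genes was 0.552. All 7 groups made only of noncoding transcripts, at Rora, Ets1, Tox and Bach2, lacked the mark.

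**Figure D1:**
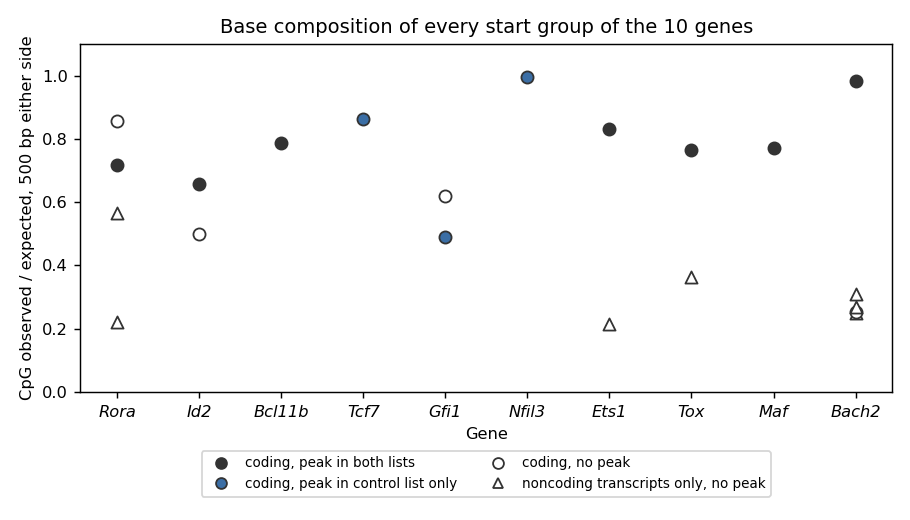
CpG observed to expected ratio within 500 bp of each of the 21 start groups (vertical axis, no unit) of the 10 genes (horizontal axis), 1 point per group, with the fill giving the lists in which it had a peak. Marked groups lie between 0.491 and 0.996, and the triangles, groups of noncoding transcripts only, are all unmarked.

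Base composition did not separate the groups fully, and Rora and Gfi1 were the exceptions. Rora, which encodes the nuclear receptor RORα needed for ILC2 development, has 4 start groups. The most CpG-rich, that of the long transcript Rora-201 at chr9:68653786-68653891 with a ratio of 0.856, had its nearest control peak 121082 bp away. The peak lay instead at the internal coding start of Rora-202, whose ratio was 0.718, and it did so in both lists. At Gfi1, a zinc-finger repressor that holds ILC2s to their type, the upstream group had a ratio of 0.621 and no peak within 1000 bp, with the nearest control peak at 1728 bp. The marked group was that of Gfi1-201, with the lowest ratio of the marked groups.

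Short motifs were searched on both strands of the 250 bases before each start group, and none of them contains another. AGAACA, the glucocorticoid receptor half-site, was in 0 of 10 marked and 1 of 11 unmarked windows, and in 14.1% of all protein-coding promoters of this length. GATA letters (AGATAA) and TCF/LEF letters (CTTTGAT) were in none of the 21, against 9.12% and 2.94% of promoters. ETS letters (CCGGAAG) were in the marked window of Rora, on the opposite strand to the one printed, and in 1 unmarked window of Bach2, against 8.03% of promoters. AP-1 letters (TGACTCA) were in 2 unmarked windows of Bach2 and no marked one, against 4.00%. NFIL3 letters (TTACGTAA) were in none, against 0.0866%.

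The side of the start on which the peaks lay was read from the summit. The summit, the position of most fragments within a peak, was downstream of the nearest start in 11 of 14 start peaks of the control list and in 10 of 10 of the asthmatic list, against 69.4% and 70.9% of the start peaks of all protein-coding genes. The summits upstream of the nearest start were in the second control peaks of Bcl11b, Nfil3 and Tox, the last of which lies between starts, and none of these 3 peaks overlapped an asthmatic peak. In all, 8 of 14 control start peaks overlapped an asthmatic peak by at least 1 bp, against 70.0% of the start peaks of all protein-coding genes. Of the asthmatic start peaks, 10 of 10 overlapped a control peak, against 95.6%. Peaks away from starts included, 14 of 23 control and 17 of 20 asthmatic peaks of the 10 genes overlapped the other list, against 71.8% and 60.9% of all peaks. At least 50% of both peaks was shared by 7 of 23 and 7 of 20, against 56.0% and 45.7%. Every start peak had a summit whose 75 bases occur once on the assembled chromosomes.

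**Figure D2:**
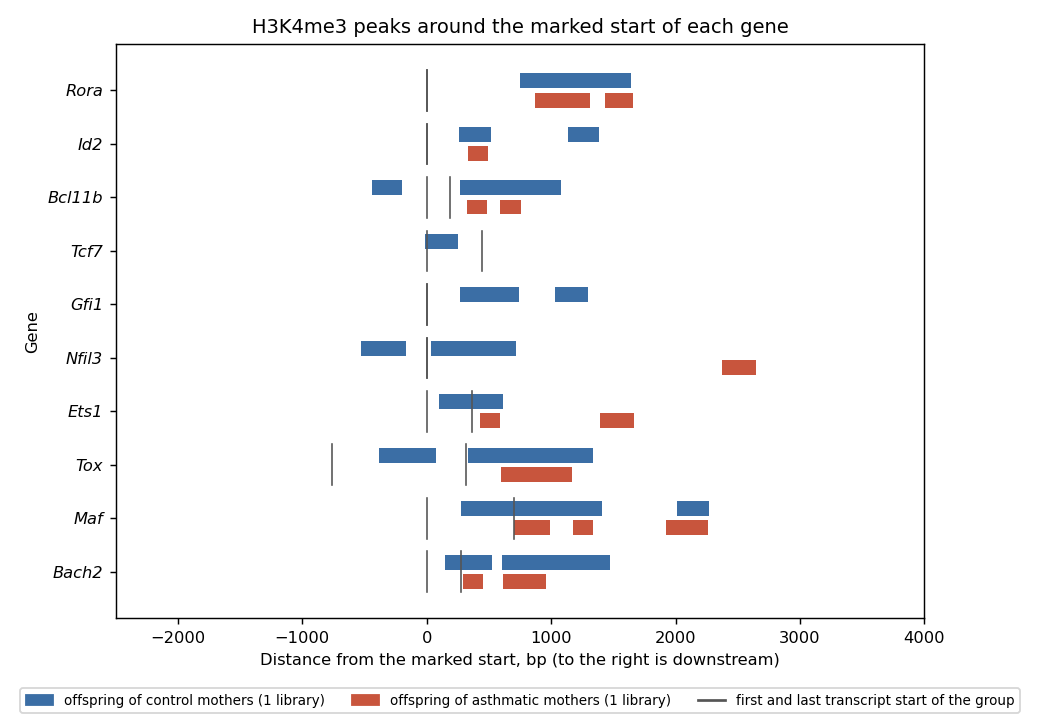
Peaks of both lists (bars) for each gene (vertical axis), by distance in bp from the marked start with downstream to the right (horizontal axis); vertical ticks give the first and last transcript start of the group. Bcl11b and Nfil3 have a bar upstream of all their starts in the control list only, and the single asthmatic bar of Nfil3 starts 2375 bp downstream.

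To compare breadth, peaks no more than 1000 bp apart were joined, and the width of the widest joined domain that held a start peak was taken for each gene. The median joined width of the 10 genes was 1185 bp in the control list (range 261 to 1997) and that of the 7 genes in the asthmatic list was 668 bp (range 160 to 1560). For all protein-coding genes with a start peak the medians were 663 and 409 bp. Of the 7 genes with a start peak in both lists, 6 were wider in the control list, as were 92.2% of all such genes. The ratio was at least 1.5 in 4 of 7, with a background of 50.5%, and its median was 1.99 against 1.51 over all such genes. Neither share is far from its background with 7 genes. Without joining, 7 of 7 reached a ratio of 1.5, against 53.3% of all such genes, and the order of the 7 changed.

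**Figure D3:**
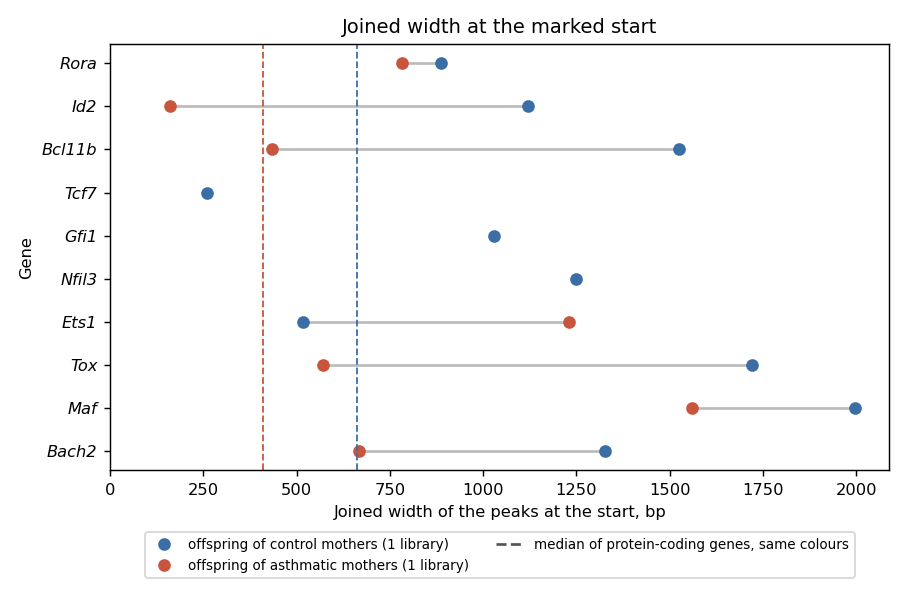
Joined width in bp of the peaks at the marked start (horizontal axis) for each gene (vertical axis), 1 point per library, with dashed lines at the medians of all protein-coding genes with a start peak (663 bp control, 409 bp asthmatic). With joining, Id2, Bcl11b and Tox have the highest control to asthmatic ratios, and Ets1 alone is wider in the asthmatic list; without joining, Id2 and Tox have the lowest ratios and Ets1 is wider in the control list.

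Rank was read from −log10 q, the significance the peak list gives each peak, as a percentile among all peaks of its own list. The median percentile of the best start peak was 73.1 in the control list (range 17.3 to 89.3, 10 genes) and 41.3 in the asthmatic list (range 8.98 to 85.8, 7 genes). Over all protein-coding genes with a start peak the medians were 82.7 and 60.6, both above those of the 10 genes. Of the 7 genes, 6 ranked lower in the asthmatic list, and 86.7% of all protein-coding genes with a start peak in both lists did so.

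**Figure D4:**
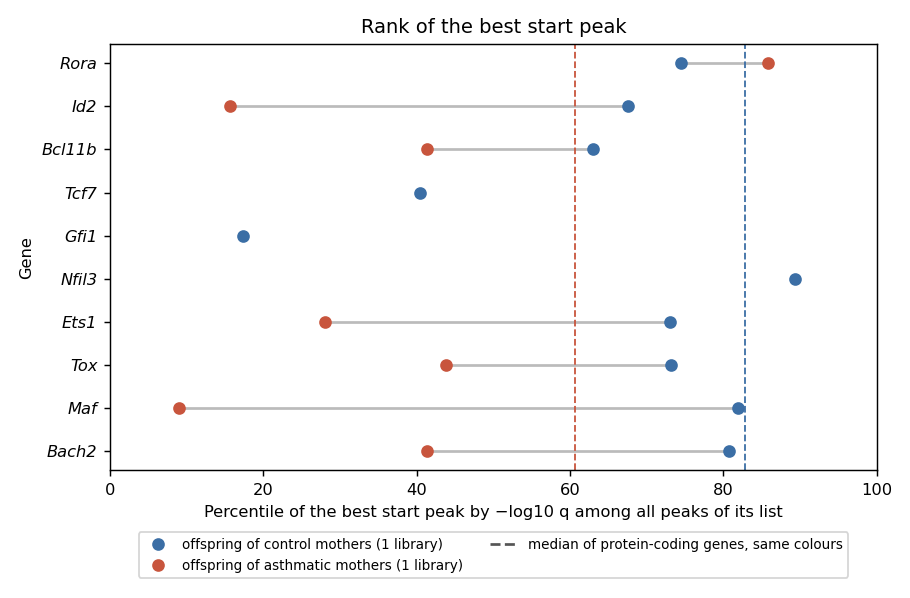
Percentile of the best start peak by −log10 q among all peaks of its list (horizontal axis) for each gene (vertical axis), 1 point per library, with dashed lines at the medians of all protein-coding genes (82.7 control, 60.6 asthmatic). Rora is the gene with a higher percentile in the asthmatic list, and Maf shows the widest gap, 82.0 to 8.98; ranked by fold or among protein-coding genes, Rora shows the widest.

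The rank by −log10 q and the number of fragments gave different orders at these genes. The fold and significance of a peak are set against the fragments around it. The fold and −log10 p of a peak gave back a whole number of fragments at the summit for 42123 of the 42126 control and 51607 of the 51610 asthmatic peaks. They also gave a whole number of fragments in the 10 kb around the summit wherever that window set the background. These counts were derived here and rest on the peaks having been called without a control library. The genome-wide level was 96.1 fragments per 10 kb in the control list and 100.4 in the asthmatic list, so the libraries were of like depth by this measure. Intervals below are 95% exact Poisson intervals and cover counting error only.

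Measured this way, 9 of the 10 genes stood at or above the 90th percentile of protein-coding genes with a start peak in the control list, where 9.99% stand by construction. The range of those 9 was 91.9 to 99.7, and Tcf7 was at 47.5. In the asthmatic list 7 of 7 stood there, between 92.1 and 99.4, against 10.0%. Ranked instead by −log10 q among the same protein-coding genes, the 10 genes had a median percentile of 32.2 in the control list and the 7 had 28.6 in the asthmatic list. The 1120 genes at or above the 90th percentile of the 10 kb count in the control list had a median percentile of 41.3 by −log10 q, and the 923 such genes in the asthmatic list had 49.3.

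The order in the control list was Id2 with 557 fragments per 10 kb (interval 512 to 605), Rora with 520, Maf with 448, Ets1 with 422, Bcl11b with 375 and Gfi1 with 361 (325 to 400). Nfil3 with 265 (234 to 299), Tox with 260 and Bach2 with 217 (189 to 248) followed, and Tcf7 had 129 (108 to 153). The intervals of neighbours in this order overlapped except between Gfi1 and Nfil3 and between Bach2 and Tcf7. In the asthmatic list the order was Id2 with 338, Rora with 313, Bcl11b with 256, Maf with 250, Ets1 with 243 (213 to 276), Tox with 179 (154 to 207) and Bach2 with 165. Only the intervals of Ets1 and Tox among neighbours did not overlap.

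All 7 genes with both values had fewer fragments per 10 kb in the asthmatic list. So had 93.4% of the 5476 protein-coding genes with a start peak and a 10 kb count above the genome-wide level in both lists. Genes at that level in either list are left out of the 10 kb backgrounds, and the effect of leaving them out was not tested. All 7 had fewer fragments at the summit, as had 97.2% of the 9068 protein-coding genes with a start peak in both. The summit counts are of fragments 190 bp long in the control list and 156 bp in the asthmatic list, taken as the smallest peak widths, so they are not like for like between the lists. The median summit ratio was 0.567 over the 7 genes and 0.613 over those 9068 genes. The 10 kb ratio of asthmatic to control was lowest at Maf, 0.558 (interval 0.476 to 0.653), and highest at Bach2, 0.760 (0.617 to 0.935). Its median was 0.607 over the 7 genes and 0.780 over those 5476 genes. At Rora, Id2, Ets1 and Maf the control count was at least 1.5 times the asthmatic one, 4 of 7 genes against 14.0% of those 5476 genes. Among the genes with at least 200 fragments per 10 kb in the control list, as all 7 had, the background was 35.1% and the median ratio 0.694. That filter uses the denominator of the ratio, and how far the filter itself lowers the ratio was not tested.

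**Figure D5:**
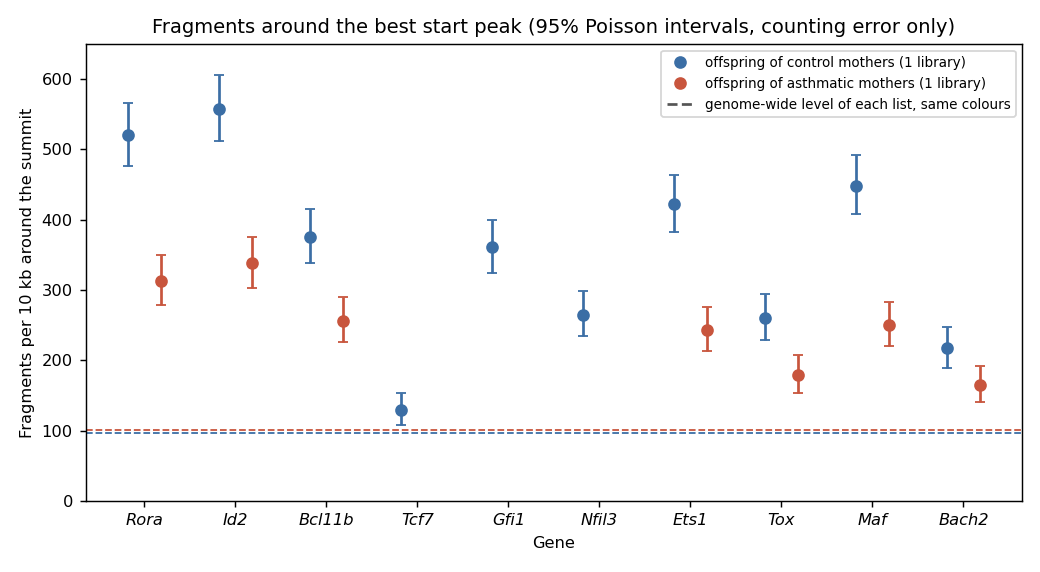
Fragments in the 10 kb around the summit of the best start peak (vertical axis, count) for each gene (horizontal axis), with 95% exact Poisson intervals for counting error; dashed lines give the genome-wide level of each list (96.1 and 100.4). All 7 genes with both values are lower in the asthmatic list, and Tcf7 is closest to the genome-wide level.

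Id2, Tcf7, Nfil3, Tox and Ets1 act early, in progenitors of the innate lymphoid lineages. Id2, which encodes an inhibitor of E proteins, had the highest 10 kb count of the 10 genes in the control list and of the 7 with a value in the asthmatic list. Its start peak on the first coding exon, chr12:25095580-25095830, held 42 fragments at the summit in the control list and 21 in the asthmatic list. The summits were at 25095706 and 25095707, 1 bp apart. A second control peak in an intron downstream, with 31 fragments, was not listed in the asthmatic list, and the joined width was 1120 bp against 160 bp, the widest ratio of the 7 genes at 7. That ratio rests on joining the second peak, and without joining Id2 had the smallest of the 7 ratios, with peaks of 251 and 160 bp (0.65 on the log2 scale). The percentile went with it, 67.5 in the control list and 15.7 in the asthmatic list.

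Nfil3 encodes a basic leucine zipper repressor needed before the innate lymphoid lineages part. Its best start peak was the highest-ranked of the 10 genes in the control list, at the 89.3rd percentile, with 37 summit fragments and a joined width of 1249 bp over chr13:52980356-52981035 and a smaller upstream peak. The asthmatic list held no peak within 1000 bp of the start. Of protein-coding genes at or above the 80th percentile in the control list, 5.09% had no asthmatic start peak, and of those under the 50th, 64.1%. The asthmatic list had 1 peak in the first intron, 2375 bp from the start, with 12 summit fragments at the 0.516th percentile. The 10 kb around that intron peak held 178 fragments in the asthmatic list, above the genome-wide level of 100.4, against 265 around the control start peak. A peak missing from the list does not by itself show that the mark was absent.

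Tcf7 encodes TCF1, an HMG-box factor used by early progenitors and T cells. It had the smallest domain, a single control peak of 261 bp at chr11:52282765-52283025 with 17 summit fragments, at the 40.4th percentile. The nearest asthmatic peak was 34365 bp away. Tox, another HMG-box factor, had 1 control peak over its middle start and a larger one from 14 bp past its last start, 1721 bp in all and with 30 fragments at the higher summit. The asthmatic list held a peak within the downstream one, 572 bp wide with 18 fragments. Its percentile was 73.2 in the control list and 43.8 in the asthmatic list.

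Ets1, the founding ETS factor, was the exception in width. The joined width was 518 bp in the control list and 1231 bp in the asthmatic list, a ratio of 0.421. The asthmatic domain was 2 small peaks, of 156 and 272 bp, with the second in an intron 1029 bp past the last start of the group. Without joining, the control peak was the wider one. The summit held 38 fragments in the control list and 19 in the asthmatic list, and the percentiles were 73.1 and 28.1.

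Rora, Bcl11b and Gfi1 belong to the ILC2 program itself. The start peak of Rora lay 754 bp downstream of the Rora-202 start in the control list, at chr9:69290436-69291321, and 873 bp downstream in the asthmatic list. Its summit held 43 fragments in the control list and 31 in the asthmatic list, and the 10 kb count was lower too, 520 against 313. The background used for the fold was 9.88 fragments in the control list and 4.88 in the asthmatic list. The fold was therefore higher in the asthmatic list, 5.44 against 4.04, and so was the percentile, 85.8 against 74.4. By summit fragments Rora ranked lower in the asthmatic list, at the 91.8th percentile against the 98.4th. With a distance of 500 bp Rora had no start peak in either list.

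Bcl11b, a zinc-finger factor that keeps ILC2s from other fates, had 2 start peaks in each list. In the control list they spanned 1524 bp around the starts with 33 fragments at the higher summit, and in the asthmatic list 434 bp downstream of them with 21. The percentiles were 63.0 and 41.4. Gfi1 had a domain of 1029 bp in the control list, of 2 peaks with 25 and 22 summit fragments, at chr5:107723606-107724077 and in an intron downstream. It ranked lowest of the 10 genes, at the 17.3rd percentile, although its 10 kb count stood at the 98.9th. The nearest asthmatic peak was 94938 bp from its upstream start group.

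Maf, a basic leucine zipper factor of cytokine-producing lymphocytes, had the widest joined domain of the 10 genes in both lists, 1997 bp and 1560 bp. Without joining, its widest start peak was 1139 bp in the control list, still the widest. In the asthmatic list it was 288 bp, below those of Tox (572 bp), Rora (441 bp) and Bach2 (344 bp). The protein-coding genes most like it in both widths were Irf2bpl with 2022 and 1542 bp, and Lnx2 and Polr1d, which share a domain of 1907 and 1576 bp. The best start peak held 43 summit fragments in the control list, at chr8:115706384-115707522, and 17 in the asthmatic list, a ratio of 0.395 (0.211 to 0.708). That interval holds the median over protein-coding genes with a start peak in both lists, 0.613. The percentile was 82.0 against 8.98. Part of the joined domain, in both lists, was a peak 1313 bp (control) and 1223 bp (asthmatic) past the last start and within 1000 bp of the start of the antisense gene Gm15655. That peak had more fragments at its summit than the start peaks in the asthmatic list, 20 against 17. With a distance of 2000 bp it counted as a start peak of Maf, and the difference in percentile was -45.1 in place of -73.0.

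Bach2, a repressor that restrains effector differentiation, has 5 start groups and used the most upstream one. Its 2 start peaks in each list covered 1327 bp with 30 fragments at the higher summit in the control list, and 668 bp with 17 at the best peak in the asthmatic list. The percentiles were 80.7 and 41.3.

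The peaks away from starts numbered 9 in the control list and 10 in the asthmatic list. The highest-ranked peaks of Rora and Bach2 in both lists were among them and lay wholly in repeat-masked sequence of introns. Their summit sequences, 75 bases on the + strand, show what outranked the starts; they hold no CG dinucleotide and so no capitals.
Rora intron 1, summit in the control list (chr9:69016286-69016360, + strand): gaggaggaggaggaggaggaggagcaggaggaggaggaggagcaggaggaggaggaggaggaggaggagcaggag
Rora intron 1, second repeat, summit in the control list (chr9:69100068-69100142, + strand): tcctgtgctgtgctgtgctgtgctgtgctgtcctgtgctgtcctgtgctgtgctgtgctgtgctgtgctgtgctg
Bach2 intron 2, summit in the control list (chr4:32356823-32356897, + strand): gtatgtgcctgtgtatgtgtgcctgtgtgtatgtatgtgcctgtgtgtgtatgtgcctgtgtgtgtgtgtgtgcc
The first Rora repeat, at chr9:69016185-69016593, ranked at the 98.7th percentile in the control list with 37 summit fragments and at the 99.7th in the asthmatic list with 58. Its 75-base summit sequence occurs 2 times on the assembled chromosomes at the control summit and 3 times at the asthmatic one. The second Rora repeat ranked at the 76.9th and the 96.1st percentile, with 22 and 26 fragments. A pair of further Rora intron 1 peaks had summits with 2546 to 6532 copies, and how reads from these copies were placed was not tested. The Bach2 repeat ranked at the 87.8th and 94.4th percentile with 24 and 23 fragments, and its surroundings were at the genome-wide level.

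All 4 intron 1 peaks of Rora listed in both had more summit fragments in the asthmatic list. Of all peaks away from protein-coding starts and listed in both, 46.9% had more there, and 47.9% of those wholly in repeat-masked sequence. Over the 4 repeat peaks the counts were 37, 19, 15 and 22 in the control list and 58, 24, 22 and 26 in the asthmatic list. The 10 kb around them held 113 to 118 fragments in the control list and 119 to 151 in the asthmatic list. Ranked over the whole gene body, Rora and Bach2 stood at the percentile of a repeat and not of a start.

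Genes of the same families and pathway were read from lists. The share of all protein-coding genes with a start peak was 50.9% in the control list and 41.9% in the asthmatic list. Of 26 paralogues of the 10 genes, 13 had a start peak in the control list and 12 in the asthmatic list, near those shares. Bach1 at the 97.7th, Ets2 at the 90.7th, Fli1 at the 87.5th and Tox4 at the 86.3rd percentile ranked highest in the control list. Id1, Id3, Id4, Bcl11a and Gfi1b, relatives of Id2, Bcl11b and Gfi1, had none in either list. Of 20 other regulators of ILC development, 20 and 17 had a start peak, with Gata3, Myb and Irf4 in the control list only. Stat5b at the 96.3rd, Notch2 at the 92.8th, Pparg at the 89.0th and Ahr at the 88.6th percentile ranked highest. Of 16 regulators of other lineages, 6 and 3 had one, among them Zbtb7b at the 67.7th, Irf8 at the 57.9th, Bcl6 at the 56.8th and Tal1 at the 31.7th percentile in the control list. Foxp3 was listed in the asthmatic list only.

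The 10 kb counts of these lists were read in the same way. In the control list 2 of the 13 paralogues, 6 of the 20 regulators and 2 of the 6 genes of other lineages with a start peak stood at or above the 90th percentile, against 9 of 10. In the asthmatic list the counts were 2 of 12, 3 of 17 and 2 of 3, against 7 of 7. Gata3 had 181 fragments per 10 kb in the control list and stood at the 83.1st percentile.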

How the data were processed

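H3K4me3 was measured by carrier-assisted native ChIP-seq after micrococcal nuclease digestion, in 1 library per group. The authors trimmed reads with Trim Galore and cutadapt, aligned them to GRCm38 (mm10) with Bowtie2 and removed PCR duplicates. The caller, its threshold and any use of input for the peak lists are not given in the sources used here, and the reporting summary states that ChIP-seq peak calling was not performed and that the quality of the data went unchecked. The deposited lists give each peak a score, a fold (ratio over background), a −log10 p-value, a −log10 q-value and a summit. Coordinates are printed 1-based.

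Transcript starts came from GENCODE vM21. Peaks within 1000 bp of a start were start peaks, and peaks up to 1000 bp apart were joined. Rank percentiles used −log10 q over all peaks of a list. Summit fragments were solved from fold, (fragments + 1)/(background + 1), and −log10 p, the Poisson tail, with a tolerance of 0.001, which succeeded for 42123 of 42126 control and 51607 of 51610 asthmatic peaks. The background times 10 kb over the fragment length, taken as the smallest peak width of 190 and 156 bp, was within 0.05 of a whole number in 100% of peaks above the smallest background. The solving was tested on simulated data. Duplicate removal caps counts at a position, so fragments are not a count of nucleosomes. The depth as read totals is not given in the lists.

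The 10 genes, the gene lists and the alternatives were chosen with earlier results of these data known. Genes named were the 10, Gata3, up to 4 per list by control percentile and the 3 nearest to the widest member in joined width. The relatives, Myb, Irf4, Foxp3 and the markers named beside a count, and Gm15655, were named after their values were seen. Sequences came from RefSeq's GRCm38 assembly, and windows that overlap a GENCODE or RefSeq exon are not printed. The software was scipy 1.17.1, pandas 2.3.3, numpy 2.4.6 and matplotlib 3.10.9 under Python 3.11.15. With 1 library per group no test was made.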

Additional observations from a re-analysis of the deposited data

How the results depend on the processing

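No paired analysis was possible because each group was 1 library, and no replicate could be left out. Of 69 recomputed summary values, 52 stayed within 1.5 times of the value given, or for shared peaks within its exact 95% binomial interval, and 17 moved. Among the 10000 peaks of highest −log10 p in each list, 3 genes in the control list and 1 in the asthmatic list had a start peak, at 3 and 1 start groups, against 32.2% and 9.32% of protein-coding genes, with median joined widths of 680 and 441 bp and median percentiles of 24.0 and 26.6. No gene then had a start peak in both lists, so the members' own differences had no value there. Without joining, the median widths were 746 and 288 bp. All 7 genes were then at least 1.5 times as wide in the control list, against 53.3% of protein-coding genes with a start peak in both. Id2 moved from a log2 ratio of 2.81 to 0.65, and Ets1 turned from a log2 ratio of -1.25 to 1.73. With widths divided by the smallest peak width, Rora turned from 0.18 to -0.11. Ranked by fold, the median percentiles were 33.7 and 26.6 and Bcl11b ranked higher in the asthmatic list, by 0.94 percentile points, with 30.8 for Rora and -28.2 for Maf. With a distance of 2000 bp, 12 and 8 start groups were marked. Ranked among protein-coding genes, the control median was 32.2 and Bcl11b ranked 7.42 points higher in the asthmatic list, while the differences were 51.5 for Rora, -1.43 for Tox and -43.9 for Maf, in place of 11.4, -29.4 and -73.0. Ranked by joined width among domains, the asthmatic median was 79.8 and Ets1 ranked 32.1 points higher. Ranked by summit fragments, an alternative chosen after seeing the data, the percentile of Rora was -6.61 points in the asthmatic list relative to the control list. With an overlap of at least 50% of both peaks, the share of member peaks shared with the other list was 30.4% for the control list and 35% for the asthmatic list, in place of 60.9% and 85%; over all peaks the stricter overlap gave 56.0% and 45.7%. A −log10 q of at least 5 left 5 genes with an asthmatic start peak, without Id2 and Maf, against 37.3% of protein-coding genes. The 10 kb count of the start peak with most summit fragments, also chosen after seeing the data, was lower in the asthmatic list for 7 of 7 genes. The causes of these changes were not tested beyond what each setting itself changes. Thin peaks of 12 to 58 summit fragments limit the precision of every single peak.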
